A study of Mus musculus with 10 samples.

Results

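Liver RNA of young Gnmt knockout mice was compared with that of wild-type mice of the same age, on 4 of the 10 Affymetrix arrays of the series. The samples were chosen by their titles, as the wild-type and the knockout livers of 11 weeks. Each array held liver RNA of 3 mice of 1 sex, so that each genotype had 1 female and 1 male pool. All mice were of a 129/B6 strain, and the knockout mice are given as Gnmt -/-, without the targeted allele or the line being described. The other 6 arrays held tumour, nodule and adjacent liver tissue of aged knockout mice, and enter here as levels and in alternative fits. They came from 1 mouse each, a female of 21 months with a dysplastic nodule, a male of 18 months with hepatocellular carcinoma and a female of 14 months with hepatocellular carcinoma.

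Gnmt encodes glycine N-methyltransferase, an abundant enzyme of the hepatocyte cytosol that passes the methyl group of S-adenosylmethionine to glycine and so makes sarcosine. S-adenosylmethionine is the methyl donor of most methylation reactions and is also a source of polyamines and, through homocysteine, of cysteine, taurine and glutathione. Mice without Gnmt are known to accumulate S-adenosylmethionine in the liver and to develop fatty liver and liver tumours. The 11-week livers address which transcripts differ between the genotypes at a young age.

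Values are signals on a linear scale, 1 per probe set, and are given below for the female pool and then the male pool of a genotype. Differences are knockout minus wild-type on the log2 scale after 16.8 was added to each signal, so a difference of 1 is about 2-fold for a signal well above 16.8, and differences of low signals are understated. Each difference is given with its standard error (SE, n = 2 pools per genotype), and a gene was called where the p-value of limma, a linear model with sex as a term, was below 0.05 after Benjamini-Hochberg adjustment over 11032 genes. The fit had 1 residual degree of freedom, so the error of each gene rests largely on the spread shared across genes. In simulated data of this design the share of false calls was above the set threshold of 0.05. An exact permutation test of 2 pools against 2 cannot give a two-sided p below 0.333. With 1 pool per genotype and sex, the residual of the fit is the gap between the female and the male difference of a gene. The p-values therefore count a true difference between the sexes as error, and do not measure the spread between like pools or single mice.

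The 4 arrays had median signals of 77.4 to 102, and their number limits the precision. The 12 hepatocyte markers checked the tissue: 10 were tested, 0 were called in limma, all 10 differences were below 0 with a median of -0.18, and their summed signals were 605930 and 533310 in wild-type against 540640 and 477810 in knockout liver. The Actb 3' to 5' signal ratio, a measure of RNA integrity and labelling, was 2.62 and 2.6 in wild-type against 3.38 and 3.18 in knockout liver, so it parted the genotypes, and its part in the results below was not tested. The same ratio of Gapdh overlapped, at 0.938 and 0.982 against 0.955 and 1.09. The wild-type female pool stood apart in genes of the circadian clock. The clock activator Arntl had a signal of 911.5 there and of 81.9, 22.2 and 85.2 in the wild-type male, knockout female and knockout male pools. Dbp, a clock output gene, had the reverse pattern, at 190.6 in the wild-type female pool against 9904.3, 11097 and 8413.8. The part of this difference in the genotype comparison was not tested. For that reason the medians of gene lists and the differences of several genes are also given for the male pools, which do not use the wild-type female array.

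The targeted gene was nearly lost. Gnmt had signals of 59473 and 52140 in the wild-type pools and of 245.2 and 190 in the knockout pools. The knockout pools lay far below the wild-type pools in both sexes. Gnmt fell by 7.90 ± 0.21 (SE, limma adjusted p = 2.13e-05), with differences of -7.83 in females and -7.98 in males.

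Across the liver transcriptome, 160 of 11032 genes (1.45%) passed the test, of which 78 rose (0.707%) and 82 fell (0.743%) with the knockout. A further view without a test counted the genes with both knockout pools outside both wild-type pools, which were 5304 (48.1%), 2427 higher (22%) and 2877 lower (26.1%). Before adjustment 2151 genes had p below 0.05, where 552 are given by chance. All 160 called genes had the same sign in females and in males, and 154 of them did not overlap between genotypes. Of the 160, 158 differed at least 2-fold the same way in both sexes. Such a difference in both sexes was found in 391 of all genes (3.54%), 197 higher (1.79%) and 194 lower (1.76%). The test takes the gap between the sexes as error, so it favours genes that are alike in both. These counts are therefore no separate support for the calls. Of the 6 called genes that did overlap, 5 bear names, Alas2, Elovl3, Mup10, Avpr1a and Etfbkmt, of which the latter 3 were named after their values were seen. The called genes that rose had a median difference of 1.96, from 1.17 to 4.23, and those that fell a median of -1.69, with Gnmt furthest out. The rise was larger in females for 38 of 78 genes and the fall for 37 of 82. Other probe sets existed for 67 called genes, and in 62 of these every other probe set had the same sign. The median over all genes was -0.05. Where each array was instead centred on its 75th percentile that median was 0.10, and 341 genes were called, 242 higher and 99 lower, so that 71% of calls were higher against 48.8% here.

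The pools limit these calls. A fit over all 10 arrays with tissue group as a term, which takes its spread largely from aged tissue, called 5 genes. The same fit called 7 genes without the wild-type female pool, 4 of them among the 160 (Gnmt, H2-Bl, Tubb2a and Mtmr11). It called 0 genes in limma without the wild-type male, the knockout male or the knockout female pool, where 1155, 683 and 1201 genes had an unadjusted p below 0.05. The calls of single genes below therefore rest on the fit of the 4 young arrays alone.

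**Figure D1:**
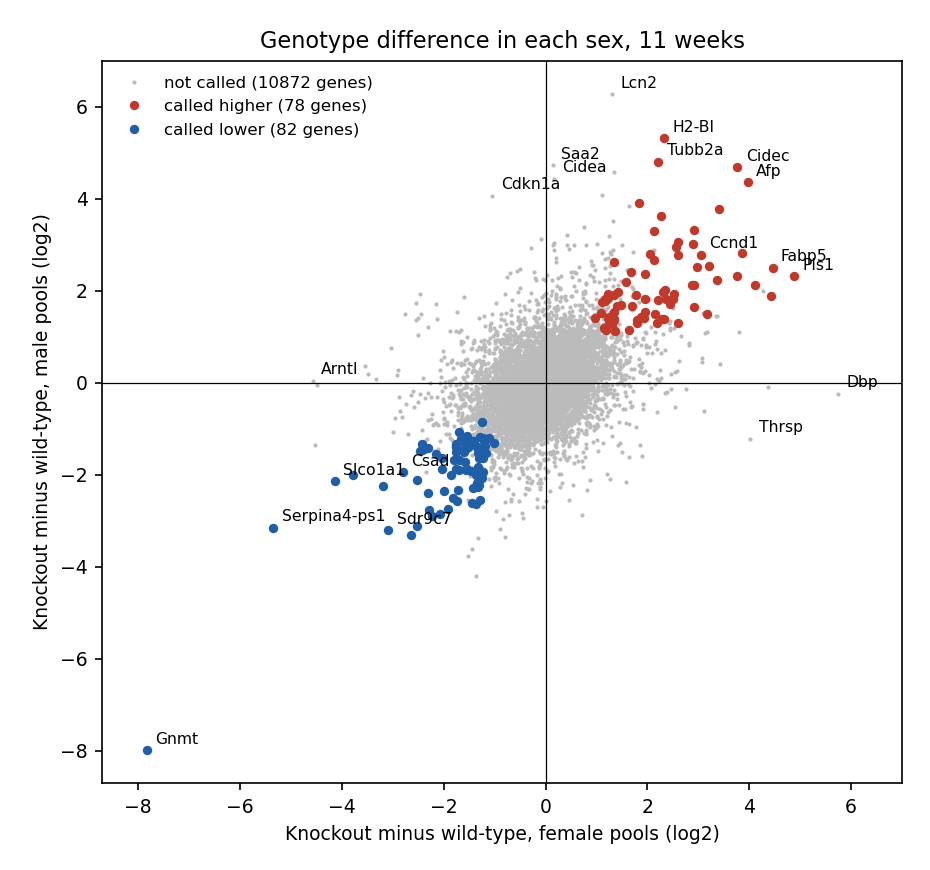
Log2 difference of knockout minus wild-type in the female pools (x axis) and in the male pools (y axis), 1 point per gene, with 78 genes called higher in red, 82 called lower in blue and genes not called in grey. The called genes lie where both sexes share a sign, which the test favours, with Gnmt at -7.83 and -7.98. Dbp, Arntl and Lcn2 show differences mostly in 1 sex.

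The largest increases were in Cidec, Afp and H2-Bl. Cidec, which coats lipid droplets and promotes their fusion, had signals of 60.5 and 121.1 in wild-type and of 1036.1 and 3555.8 in knockout liver. It rose by 4.23 ± 0.30 (adjusted p = 0.00894). Afp, the fetal serum protein alpha-fetoprotein, had signals of 16.1 and 36.3 against 499.7 and 1077.3. It rose by 4.17 ± 0.37 (adjusted p = 0.0115), a size that depends on the added constant because the wild-type female signal lay below 16.8. H2-Bl, a class I histocompatibility gene, had signals of 520.9 and 97.5 against 2694.6 and 4562.8. The groups did not overlap, but the wild-type pools differed from each other about as much as the female pools differed between genotypes. H2-Bl rose by 3.83 ± 0.61 (adjusted p = 0.0424), by 2.33 in females and 5.32 in males.

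Genes little expressed in wild-type liver made up much of the upper end. Pls1, an actin-bundling plastin, had signals of 10.1 and 135 against 777.4 and 738.4. Mtmr11, a myotubularin-related protein, had signals of 15 and 5.9 against 318.9 and 293.7, while its other probe set differed by 0.57. Atp6v0e2, a subunit of the vacuolar proton pump, had signals of 12.2 and 20.8 against 403.9 and 249. These 3 genes rose by 3.60, 3.59 and 3.34, with sizes set in part by the constant. Slc25a4, the ADP/ATP carrier form typical of heart and muscle, had signals of 180.2 and 267.3 against 2649.7 and 1414.4. It rose by 3.05 ± 0.35 (adjusted p = 0.0176), and its other probe sets differed by 2.19 and 2.33. Gucy2c, the guanylate cyclase receptor known from the intestine, had signals of 118.7 and 65.7 against 806.8 and 673.2 and rose by 2.83 ± 0.29 (adjusted p = 0.0139). The membrane serine protease Prss8 rose by 3.12, from 48.4 and 221 to 1118.5 and 1021.3. Rbm24 (2.95), an RNA-binding protein, Hsf2bp (2.87) and Cyp4f16 (2.87) completed the part of the 20 largest increases that fell outside the groups below.

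After Gnmt, the largest decreases were in Serpina4-ps1, Sdr9c7 and Slco1a1. Serpina4-ps1, a serpin pseudogene, had signals of 1745.2 and 2920.2 against 26.6 and 315.2 and fell by 4.24 ± 0.48 (adjusted p = 0.0158). Sdr9c7, a short-chain dehydrogenase, had signals of 1221.5 and 1224.5 against 129.3 and 117.7. The pools of 1 genotype lay close to each other for Sdr9c7, and the gene fell by 3.14 ± 0.25 (adjusted p = 0.00894), a call also kept without a sex term. Enho, which encodes the secreted peptide adropin, had signals of 1950.8 and 1066.9 against 198.5 and 213.5 and fell by 2.71 ± 0.29 (adjusted p = 0.0153). Etnppl, the lyase of phosphoethanolamine, had signals of 7826.3 and 9536.9 against 2350.8 and 1592 and fell by 2.15 ± 0.26 (adjusted p = 0.0189). Dnase2a, a lysosomal nuclease, had signals of 4711.6 and 4651.1 against 1172.4 and 897.4 and fell by 2.17 ± 0.22 (adjusted p = 0.0139). Cnmd (-2.90), Celsr1 (-2.46), Dcst2 (-2.33), Hectd2os (-2.03) and Prr16 (-2.02) were lower as well, and Cnmd and Celsr1 each had a knockout signal below 16.8.

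**Figure D2:**
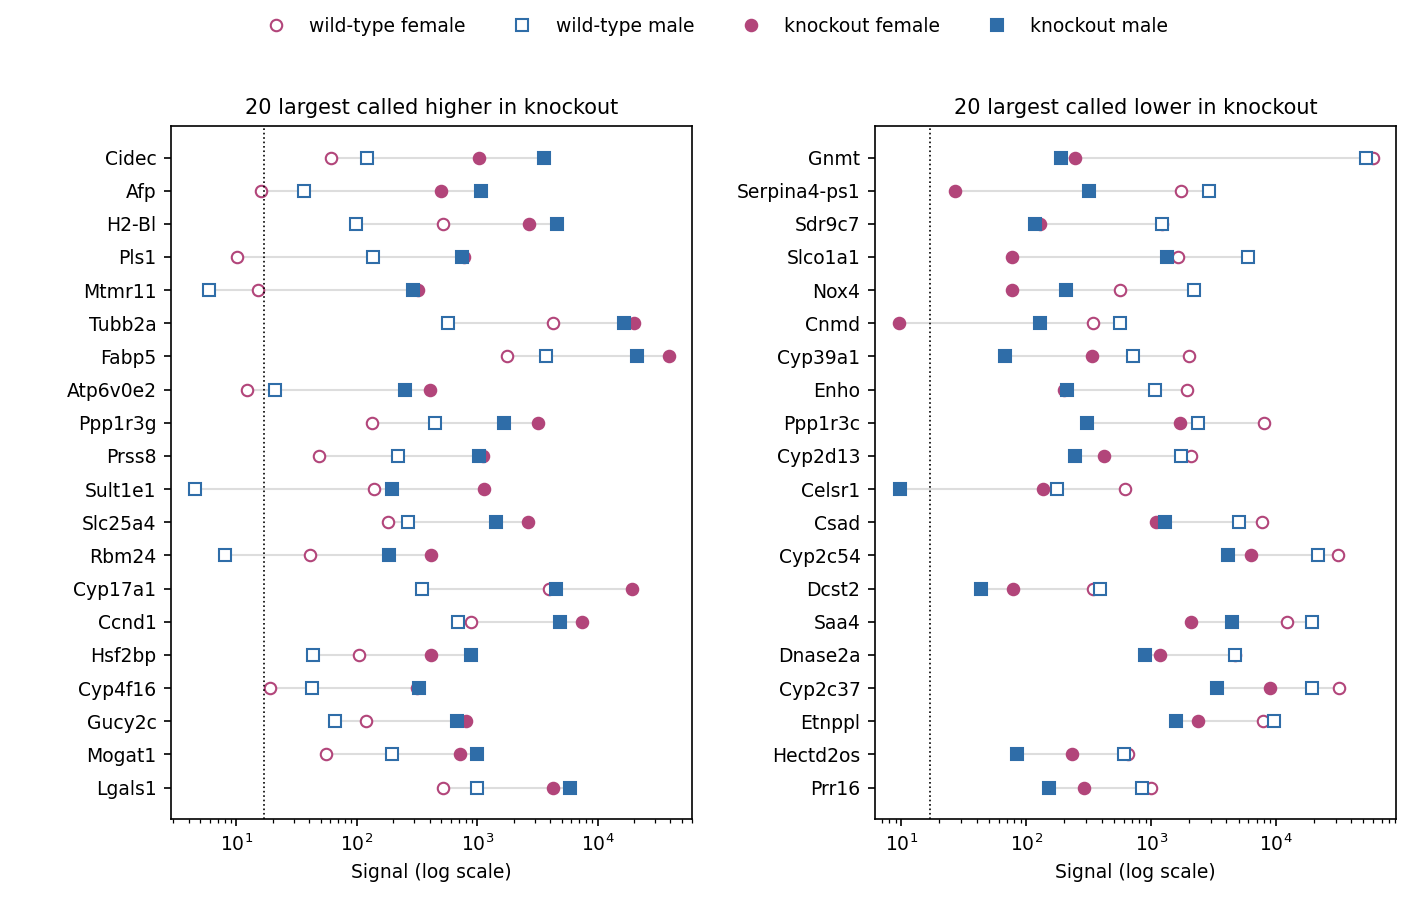
Signal per pool on a log axis for the 20 genes with the largest increase (left) and the 20 with the largest decrease (right) among called genes, with open symbols for wild-type, filled symbols for knockout, circles for female and squares for male pools, and a dotted line at 16.8. All 40 genes have both knockout pools on 1 side of both wild-type pools, and Cidec and Gnmt head the panels.

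Around Gnmt itself, only the taurine branch had a second called gene. Csad, cysteine sulfinic acid decarboxylase, makes hypotaurine, the precursor of the taurine used for bile acid conjugation. Its signals were 7759 and 5022.3 in wild-type and 1101.1 and 1297.5 in knockout liver, with no overlap. Csad fell by 2.37 ± 0.27 (adjusted p = 0.0158), with -2.80 in females and -1.94 in males. Of 27 tested genes of the methionine cycle and one-carbon metabolism, 2 fell (Gnmt and Csad) and 0 rose, with 15 differences above 0 and a median of 0.05, or -0.17 in males. In a fit over all remaining arrays of the series, called the wider fit below, that median was -0.25 with the wild-type female array left out, 0.22 with the wild-type male one, and -0.02 and -0.01 with the knockout male and female ones. Cdo1, the cysteine dioxygenase just before Csad, had signals of 44219 and 30083 against 26386 and 18796, and differed by -0.71 without passing (adjusted p = 0.0892). The mitochondrial folate enzymes Aldh1l2 (1.43) and Mthfd1l (1.41) were the largest positive differences and did not pass (adjusted p of 0.316 and 0.111).

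The enzymes that make S-adenosylmethionine, clear its product and take over sarcosine were not called, and are named here after their values were seen. Mat1a, the liver S-adenosylmethionine synthetase, had signals of 45084 and 37642 against 43023 and 35630 (difference -0.07). Ahcy, which hydrolyses S-adenosylhomocysteine, had signals of 59241 and 52925 against 46985 and 39136 (difference -0.38, adjusted p = 0.237), with both knockout pools the lower. Sardh and Pipox, which oxidise sarcosine, differed by -0.39 and -0.65 without passing (adjusted p of 0.378 and 0.141). Of 18 methyltransferase and polyamine genes, 0 were called in limma, with a median of 0.11, or 0.07 in males. In the wider fit it was -0.07 and 0.44 with the wild-type female and male arrays left out, and 0.40 with the knockout female and 0.28 with the knockout male one. Among these the nicotinamide methyltransferase Nnmt had signals of 6608.2 and 3699.4 against 8095 and 15285 and differed by 1.17 (adjusted p = 0.172). Hnmt, the histamine methyltransferase, differed by 0.996 and Sat1, which acetylates polyamines, by 0.89, neither passing (adjusted p of 0.155 and 0.11).

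Most sterol synthesis genes were above their wild-type signals in both sexes. Cells make cholesterol from acetyl-CoA through mevalonate, squalene and lanosterol, and the transcription factor SREBP2 drives most of the enzymes together. Of 25 listed genes 20 were tested, 3 rose (0.707% of all genes) and 0 fell (0.743%), and 19 differences were above 0. Both knockout pools lay above both wild-type pools in 18 genes, as in 22% of all genes. Their median was 1.004, with 1.40 in females and 0.73 in males, against -0.05 over all genes. With the wild-type female array left out, in the wider fit, it was 0.72.

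The 3 called enzymes stand along the path. Hmgcs1, which makes HMG-CoA, had signals of 10460 and 7343.3 in wild-type and 40576 and 21402 in knockout liver, and rose by 1.75 ± 0.19 (adjusted p = 0.0156) with 4 other probe sets of the same sign. Lss, lanosterol synthase, had signals of 640.1 and 776.9 against 3176.2 and 2073.5 and rose by 1.84 ± 0.28 (adjusted p = 0.0399). Cyp51, which demethylates lanosterol, had signals of 1393.9 and 1943.4 against 4374.1 and 4343.3 and rose by 1.40 ± 0.23 (adjusted p = 0.0424). In all 3 the lowest knockout pool was above the highest wild-type pool. Squalene epoxidase, Sqle, had signals of 529.6 and 1317.3 against 4914.1 and 2866.6 and differed by 2.14 without passing (adjusted p = 0.0694). Squalene synthase, Fdft1, differed by 1.68 (adjusted p = 0.0536) and Fdps by 1.46 (adjusted p = 0.0878). The regulator Srebf2 itself, named after its values were seen, had signals of 488.5 and 679.1 against 576.6 and 532 and differed by -0.06 (adjusted p = 0.929).

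Because these genes differed together, the promoters of the 3 called enzymes were read from the RefSeq promoter table of build GRCm38.p6. The 250 bases before the transcription start are shown 5′ to 3′ on the gene's strand, at chr13:119690101-119690350 (plus strand) for Hmgcs1, chr10:76531355-76531604 (plus strand) for Lss and chr5:4104698-4104947 (minus strand) for Cyp51. Capitals mark matches, on either strand, to CCAAT, the box bound by NF-Y (ATTGG where read on the other strand), or to TCACNCCAC. The latter is 1 form of the sterol regulatory element.
Hmgcs1: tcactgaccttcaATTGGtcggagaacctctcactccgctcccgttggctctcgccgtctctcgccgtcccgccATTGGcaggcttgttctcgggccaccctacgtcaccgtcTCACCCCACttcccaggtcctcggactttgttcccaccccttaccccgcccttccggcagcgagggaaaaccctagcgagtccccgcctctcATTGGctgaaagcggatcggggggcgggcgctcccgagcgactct
Lss: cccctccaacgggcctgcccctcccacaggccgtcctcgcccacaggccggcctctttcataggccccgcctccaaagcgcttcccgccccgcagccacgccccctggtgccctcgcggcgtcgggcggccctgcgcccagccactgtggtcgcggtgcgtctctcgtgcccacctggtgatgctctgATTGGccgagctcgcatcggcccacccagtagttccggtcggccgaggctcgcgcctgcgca
Cyp51: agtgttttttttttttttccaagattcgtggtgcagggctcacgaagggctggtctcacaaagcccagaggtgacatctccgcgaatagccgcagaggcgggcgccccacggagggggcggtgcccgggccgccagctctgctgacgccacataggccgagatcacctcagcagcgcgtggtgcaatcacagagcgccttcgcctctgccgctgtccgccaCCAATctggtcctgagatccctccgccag
CCAAT occurred in the promoters of all 16 tested sterol genes with an entry in the table, against 40.3% of 8965 tested genes and 37.5% of 27025 genes of the table. Over all list members with an entry it was 16 of 17, with no match in Acat2. A gene with several entries counted if any held the motif, which was 1 of 3 entries for Dhcr7 and 1 of 2 for Pmvk. The form TCACNCCAC occurred in 1 of the 16, as TCACCCCAC in Hmgcs1 beginning 137 bases before the start, against 1.33% of tested genes. Over called genes with an entry, CCAAT occurred in 31 of 62 that rose and 26 of 62 that fell. A match describes these letters only, and the windows are short. Sterol regulatory elements with other letters were not searched for, so a promoter without a match may still hold one.

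Fatty acid synthesis differed between the sexes. These genes, with SREBP1c and ChREBP as regulators, follow feeding and the clock. Of 19 tested, 0 rose and 1 fell, with a median of 0.67, but 1.57 in females and -0.45 in males, a difference that was not tested. With the wild-type female array left out of the wider fit the median was 0.03, and with the wild-type male or the knockout male array left out it was 1.32 or 1.09. Thrsp, a lipogenic nuclear protein, had signals of 1653.4 and 27417 in wild-type and 27114 and 11802 in knockout liver, and Fasn, fatty acid synthase, 2495.4 and 2651.7 against 9410.4 and 1931.8. Both are named after their values were seen, and in both the knockout female pool was above and the knockout male pool below its wild-type pool. In the same wild-type female pool Dbp was at 190.6 and Arntl at 911.5. The desaturase Scd2 differed in both sexes, with signals of 248.8 and 151 against 2673 and 443.5, by 2.40 without passing (adjusted p = 0.0513), and Acss2 (1.84, adjusted p = 0.0847) and Fads2 (1.53, adjusted p = 0.0931) did not pass either. The call was Elovl3, an elongase higher in male liver, with 593.3 and 6034.4 against 152.4 and 1485.2. The knockout pool was the lower in each sex, and Elovl3 fell by 1.93 ± 0.23 (adjusted p = 0.0177).

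Among genes of fat storage and uptake every call was an increase. Of 25 lipid droplet and triglyceride genes, 18 had a difference above 0. Both knockout pools lay above both wild-type pools in 10 of these 25 genes (22% of all genes) and below in 7 (26.1%). In the list 2 rose (0.707% of all genes) and 0 fell (0.743%), with a median of 0.16, or 0.15 in males. In the wider fit that median ran from -0.13 with the wild-type female array left out, over 0.02 and 0.53 with the knockout male and wild-type male ones, to 0.61 with the knockout female one. The called genes were Cidec and Mogat1, a monoacylglycerol acyltransferase with signals of 54.9 and 196.2 against 720.6 and 992.8, which rose by 2.80 ± 0.34 (adjusted p = 0.0189). Cidea, a relative of Cidec, was at 11.9, 8.6 and 15.3 in the first 3 pools and at 533.9 in the knockout male pool alone (difference 2.30, adjusted p = 0.328). Plin2, the main droplet coat of liver and named after its values were seen, had signals of 23645 and 19380 against 27637 and 35766 (difference 0.55, adjusted p = 0.212). Plin5 was lower, at 4619.6 and 4261.7 against 1590 and 2417.6, without passing (difference -1.17, adjusted p = 0.0745).

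Of 15 fatty acid uptake and binding genes, 2 rose (0.707% of all genes) and 0 fell (0.743%), and 11 differences were above 0. Both knockout pools lay above both wild-type pools in 8 of the 15 (22% of all genes) and below in 4 (26.1%). The median was 0.45, or 0.40 in males. In the wider fit it was 0.71 and 0.20 when the wild-type male and the knockout male array were left out. Fabp5, the fatty acid-binding protein known from skin, had signals of 1744.7 and 3726.5 in wild-type and 38726 and 21270 in knockout liver. Both knockout pools were more than 5 times above the higher wild-type pool. Fabp1, the liver form and named after its values were seen, had signals of 82033 and 79568 against 77024 and 64734 and differed by -0.19 (adjusted p = 0.52). Fabp5 rose by 3.48 ± 0.41 (adjusted p = 0.0188), by 4.46 in females and 2.51 in males. Lpl, lipoprotein lipase, which is low in adult hepatocytes, had signals of 855.8 and 1010 against 4486.5 and 3610.4 and rose by 2.09 ± 0.24 (adjusted p = 0.0164). Vldlr, the very low density lipoprotein receptor, differed the other way by -1.84 without passing (309 and 186.7 against 54.4 and 55.6, adjusted p = 0.099). Of 19 fatty acid oxidation genes 1 rose and 0 fell, with a median of -0.03, or -0.04 in males, which in the wider fit lay at -0.28 and 0.21 with the wild-type female and male arrays left out and at -0.34 and 0.25 with the knockout male and female ones. The called gene was Acot2, a mitochondrial acyl-CoA thioesterase (1.44 ± 0.25, adjusted p = 0.0496).

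**Figure D3:**
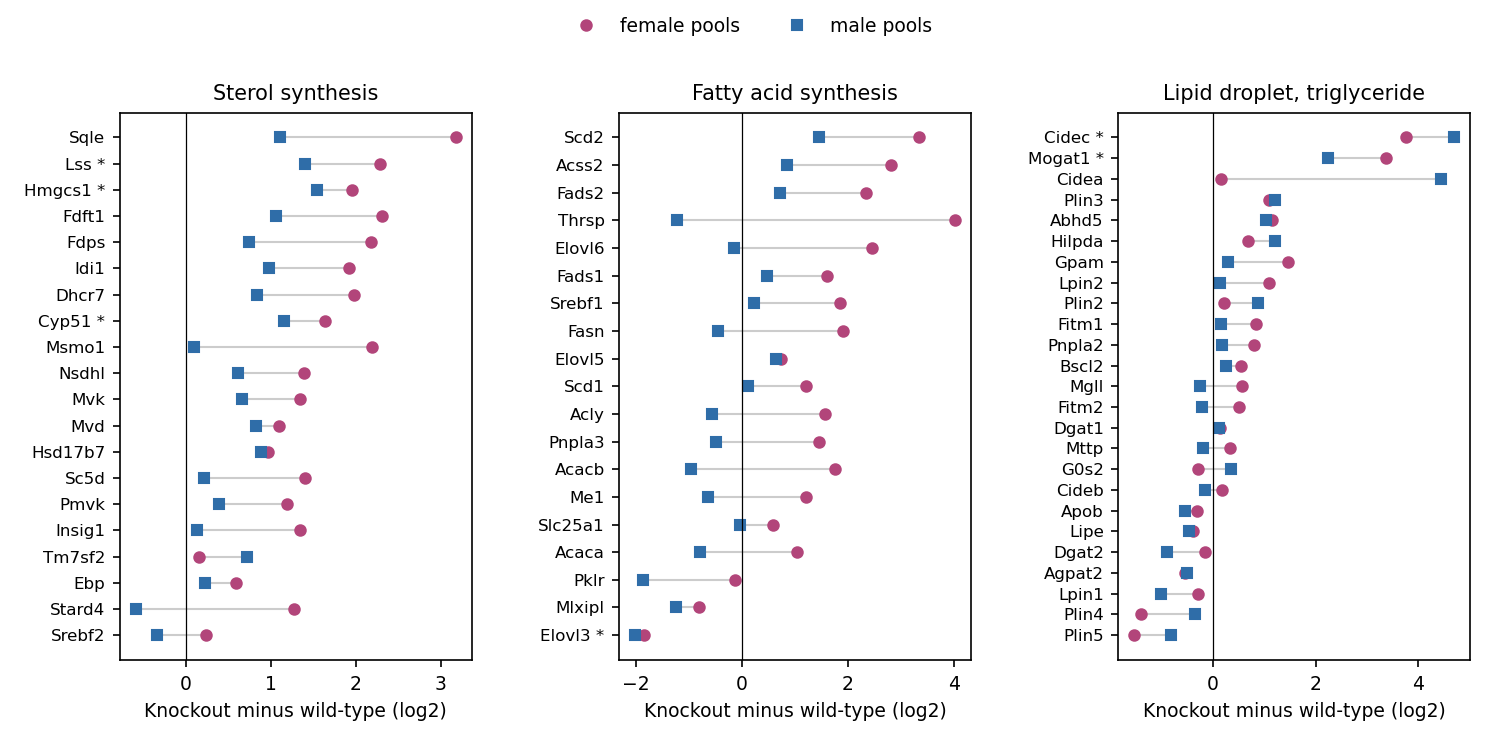
Log2 difference of knockout minus wild-type for each tested member of 3 lipid lists, in the female pools (circles) and the male pools (squares), with called genes marked by an asterisk. In sterol synthesis 18 of 20 genes have both symbols above 0, in fatty acid synthesis many members lie above 0 in females only, and in the droplet list Cidec (3.77 and 4.70) stands out.

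Of 20 tested genes of gluconeogenesis and glycogen metabolism 1 rose (0.707% of all genes) and 3 fell (0.743%). The median was -0.20, or -0.31 in males. It was -0.05 with 75th percentile centring and -0.13 in the wider fit with the wild-type male array left out. G6pc, the catalytic subunit of glucose-6-phosphatase and the last step of glucose release, had signals of 18954 and 9152.1 against 5559.4 and 2480.6 and fell by 1.82 ± 0.19 (adjusted p = 0.0147). The other changes were all in subunits that target protein phosphatase 1 to glycogen. Ppp1r3c had signals of 8055.6 and 2369.9 against 1711.8 and 303.2 and fell by 2.56 ± 0.25 (adjusted p = 0.0139). Ppp1r3b, the liver form, had signals of 8431.3 and 4903.4 against 2973.3 and 2049.3 and fell by 1.38 ± 0.21 (adjusted p = 0.0401). Ppp1r3g, a form known to follow feeding, went the other way, from 132.9 and 440.8 to 3197 and 1671.8, and rose by 3.15 ± 0.53 (adjusted p = 0.0459). In all 3 subunits the knockout pools lay outside the wild-type pools. Pck1, the enzyme that commits to gluconeogenesis, was named after its values were seen and had signals of 39874 and 37593 against 27382 and 24964 (difference -0.57, adjusted p = 0.139). In glycolysis and the pentose phosphate pathway 1 of 21 genes rose and 0 fell, with a median of 0.14, or -0.01 in males. The median in the wider fit was -0.02, 0.03 and 0.30 with the wild-type female, wild-type male and knockout female arrays left out. That was Pgd, which yields NADPH, with signals of 1097 and 1343.8 against 6004.9 and 4476.4 (2.08 ± 0.25, adjusted p = 0.0189).

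Bile acid genes were called lower only. Of 28 tested, 3 fell (0.743% of all genes) and 0 rose (0.707%), and 22 differences were below 0. Both knockout pools lay below both wild-type pools in 13 genes, as in 26.1% of all genes. The median was -0.33, or -0.48 in males. The wider fit gave -0.62 when the wild-type female array was left out and -0.22 when the wild-type male one was. Slco1a1, a sinusoidal uptake carrier of organic anions, had signals of 1626.5 and 5952.6 in wild-type and 76.4 and 1341.4 in knockout liver. It fell by 3.14 ± 0.44 (adjusted p = 0.0332), with -4.14 in females and -2.14 in males. Cyp39a1, which hydroxylates oxysterols, had signals of 1993 and 708.5 against 334.9 and 67.4 and fell by 2.81 ± 0.27 (adjusted p = 0.0139). Cyp8b1, which directs synthesis to cholic acid, had signals of 15034 and 17181 against 4750.1 and 7327.5. Cyp8b1 fell by 1.44 ± 0.20 (adjusted p = 0.0347), but its difference was 0.14 without the wild-type male pool and 0.41 without the knockout female pool in the fit over all remaining arrays. The rate-limiting Cyp7a1, named after its values were seen, had signals of 3234.8 and 8654.7 against 7870.9 and 4414.6 and overlapped (difference 0.15, adjusted p = 0.888). Nr0b2, the SHP repressor, was at 3387.7 and 1551 against 580.4 and 1159.8 and did not pass (difference -1.46, adjusted p = 0.158).

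Cytochrome P450 and drug receptor target genes were lower in several members. Of 24 tested, 6 fell (0.743% of all genes) and 1 rose (0.707%), and 19 differences were below 0. The median was -0.50, with -0.26 in females and -0.91 in males. In the wider fit it was -1.12 with the wild-type female array left out and -0.22 with the male one left out. Cyp2c54 had signals of 31056 and 21490 against 6255.2 and 4084.6 and fell by 2.35 ± 0.18 (adjusted p = 0.00894). Cyp2c37 (-2.17) and Cyp2c50 (-1.43) of the same epoxygenase cluster fell too, from signals of 31871 and 19313 to 9008.8 and 3374.2 and from 57039 and 41686 to 19851 and 16440. Probe sets of these close relatives may share signal. Cyp2d13 (-2.52), Cyp2b10 (-1.92), the classical target of the receptor CAR, and the carboxylesterase Ces2a (-1.16) fell as well. Nr1i3, which is CAR, was at 6864.2 and 4304.8 against 2478.1 and 2605.6 without passing (difference -1.09, adjusted p = 0.0862). The gene that rose was Sult1e1, the oestrogen sulfotransferase, with signals of 137.5 and 4.5 against 1143.9 and 196.8 (3.12 ± 0.38, adjusted p = 0.0189), where the male size depends on the constant.

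Among genes known to be higher in male liver every call was a decrease. Growth hormone, whose release pattern differs between the sexes, sets much of this bias. Of 16 male-biased genes 4 fell (0.743% of all genes) and 0 rose (0.707%), and 15 differences were below 0. The median was -1.02, with -0.60 in females and -0.95 in males. The median in the wider fit was -0.13 with the wild-type male array left out and -1.84 with the female one left out, and -1.61 and -0.55 with the knockout male and knockout female ones left out. The called genes were Serpina4-ps1, Slco1a1, Elovl3 and Nox4, an NADPH oxidase with signals of 564.8 and 2205.1 against 76.2 and 206.4 (-2.98 ± 0.28, adjusted p = 0.0139). In Nox4 even the knockout male pool lay below the wild-type female pool. Not all male-biased genes shared this, and 2 chosen after their values were seen, Scara5 and Cyp2d9, differed by -0.38 and -0.18 (adjusted p of 0.596 and 0.693). Among 15 genes known to be higher in female liver 1 rose and 0 fell, while 5 differences were above 0 and 10 below. The median was -0.33, or -0.17 in males. The wider fit gave 0.48 and -0.83 with the wild-type female and male arrays absent, and 0.59 and -0.54 with the knockout male and female ones. That gene was Cyp17a1, the steroid 17-alpha-hydroxylase, with signals of 3950.3 and 348.2 against 19184 and 4469.5, which rose by 2.95 ± 0.33 (adjusted p = 0.0156). For Cyp17a1 the knockout male pool thereby reached the level of the wild-type female pool. Sult2a2 and Cyp2b9 differed the other way, by -1.21 and -1.62, without passing (adjusted p of 0.159 and 0.114). Their signals were 40.3 and 7.7 in the knockout male pool, against 19674 and 9346.5 in the wild-type female pool. The growth hormone receptor Ghr had signals of 24225 and 27844 against 14057 and 13513 and differed by -0.91 without passing (adjusted p = 0.0611), and Igfals by -1.14 (adjusted p = 0.101). Of 24 growth hormone, IGF and hepatokine genes only Enho was called, with a median of -0.28, or -0.23 in males. In the wider fit it was -0.05 and -0.58 with the wild-type female and male arrays left out, and -0.11 and -0.47 with the knockout male and female ones.

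Fetal liver and tumour marker genes were called higher only. Of 22 tested, 6 rose (0.707% of all genes) and 0 fell (0.743%), and 9 were at least 2-fold higher in both sexes (1.79%). The median was 0.74, with 0.86 in females and 0.86 in males. With the knockout male array left out of the wider fit it was 1.32. Besides Afp and Lpl these were Ly6d (131.3 and 251.2 against 627.5 and 2606.1), Bex4 (146.1 and 89.2 against 1180 and 443.7), Anxa2 and Anxa5. Ly6d, a surface protein, rose by 2.71 ± 0.32 (adjusted p = 0.0189), and Bex4 by 2.50 ± 0.31 (adjusted p = 0.0195). Not every oncofetal marker was called, and 7 of the 22 differences were below 0. Gpc3 and Igf2, named after their values were seen, had low signals (12.4 and 64.4 against 63.6 and 77.3 for Gpc3) and differed by 0.84 and 0.64 (adjusted p of 0.612 and 0.479). Epcam was at 120 and 211.8 against 207.2 and 14.6, with no common direction.

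Tubulins, annexins and keratins formed the list with the most calls. Of 27 tested, 8 rose (0.707% of all genes) and 0 fell (0.743%). In 18 both knockout pools lay above both wild-type pools, as in 22% of all genes. The median was 0.84, with 0.65 in females and 1.31 in males. The median in the wider fit was 1.39 with the wild-type female array left out and 0.50 with the male one left out. Tubb2a, a beta-tubulin, had signals of 4247.1 and 567.2 in wild-type and 19790 and 16363 in knockout liver and rose by 3.51 ± 0.53 (adjusted p = 0.0399), by 2.22 in females and 4.81 in males. Lgals1, galectin-1, had signals of 516.7 and 999.2 against 4197.8 and 5826.4 and rose by 2.75 ± 0.23 (adjusted p = 0.0101). Krt8 and Krt18, the keratin pair of hepatocytes, rose by 1.84 ± 0.19 (adjusted p = 0.0139) and 1.70 ± 0.21 (adjusted p = 0.0216). Their signals were 3836 and 6624.4 against 13240 and 24770 for Krt8, and 5632.2 and 5887.3 against 15140 and 23325 for Krt18. The knockout male pool was the highest for both keratins. Krt19, a keratin of bile ducts, overlapped (101.9 and 121.7 against 184.5 and 88.3). Anxa2 (1.98), Tubb4b (1.58) and Anxa5 (1.29) rose too, while Vim, named after its values were seen, differed by 0.04.

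Cell division genes were mostly above their wild-type signals at low levels. Ccnd1, the cyclin D that carries growth signals into G1, had signals of 876.7 and 687.7 against 7367.9 and 4849.8. Every knockout signal was several times every wild-type signal, the 2 other probe sets differed by 2.79 and 2.17, and Ccnd1 rose by 2.92 ± 0.22 (adjusted p = 0.00894). Cyclins D2 and D3, Ccnd2 and Ccnd3, named after their values were seen, differed by -0.56 and -0.21 (adjusted p of 0.353 and 0.679). Of 23 replication and mitosis genes 1 rose and 0 fell, 21 differences were above 0, and the median was 0.91, with 0.39 in females and 1.13 in males. The called gene was Cdc20, an activator of the anaphase-promoting complex, with signals of 67.2 and 137.4 against 309.5 and 529.3 (1.89 ± 0.32, adjusted p = 0.0464). Cdk1 (15.2 and 120.7 against 164.4 and 406.3) and Ccnb2 (18.3 and 8.2 against 136.7 and 167.6) did not pass (adjusted p of 0.0836 and 0.144). Among 23 cyclin, inhibitor and p53 target genes Ccnd1 was the only call, with a median of 0.25, or 0.44 in males, which was 0.49 and 0.15 in the wider fit with the wild-type female and male arrays left out. The p53 targets Ccng1 (1.31) and Phlda3 (1.34) did not pass (adjusted p of 0.052 and 0.0946), and Cdkn1a went opposite ways in the sexes.

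Of 23 beta-catenin and pericentral genes, Ccnd1 rose and Notum fell, 19 differences were below 0, and the median was -0.50, or -0.57 in males, which was -0.32 and -0.33 in the wider fit when the wild-type male and the knockout female array were left out. Notum, a secreted inhibitor of Wnt ligands, had signals of 2287.6 and 1906.1 against 660.5 and 657.2 and fell by 1.64 ± 0.23 (adjusted p = 0.0332). Wnt2 (313.7 and 225.4 against 112 and 121.6) and Rspo3 (341.7 and 192.9 against 197.6 and 112), ligands made by sinusoidal endothelium, differed by -1.08 and -0.72 without passing (adjusted p of 0.173 and 0.277). Both knockout pools lay below both wild-type pools in 10 of the 23 genes (26.1% of all genes) and above in 2 (22%). Glul (14430 and 11882 against 15669 and 10620) and Oat (33583 and 22921 against 35351 and 23405) are pericentral enzymes chosen after their values were seen. Their signals overlapped, with differences of -0.02 and 0.05, and they do not stand for the other members of the list. None of 23 RAS, JAK-STAT and PI3K regulators was called in limma, 20 of their differences were below 0, and the median was -0.26, or -0.42 in males. The wider fit gave -0.43, -0.06 and -0.47 with the wild-type male, knockout male and knockout female arrays left out. The largest were Spry4 (-0.96), Spry1 (-0.95) and Socs7 (-0.82), none of which passed (adjusted p of 0.21, 0.179 and 0.181).

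In the acute phase, antioxidant and stress lists at most 1 gene each was called higher (0.707% of all genes) and 1 lower (0.743%). Of 27 acute phase and serum proteins 1 rose and 1 fell, with a median of -0.01, or 0.23 in males, that was above 0 under other scalings and lay between -0.36 and 0.46 in the wider fit as single arrays were left out. Orm2, an orosomucoid, had signals of 987.9 and 747.6 against 4119.9 and 5314.1 and rose by 2.42 ± 0.26 (adjusted p = 0.0147). Saa4, the constitutive serum amyloid A, had signals of 12137 and 19485 against 2084.3 and 4464.7 and fell by 2.33 ± 0.21 (adjusted p = 0.0117). The inducible members were high in the knockout male pool alone. Saa2 was at 1448, 1314.6 and 1601.3 in the wild-type female, wild-type male and knockout female pools and at 35312 in the knockout male pool, and Saa1 at 62189 there against 3946.8, 6698.7 and 5285.1. Lcn2, lipocalin 2, had signals of 2389.4 and 257.4 against 5957.3 and 21326 and differed by 3.80 without passing (adjusted p = 0.107).

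Gpx4, which reduces lipid hydroperoxides, had signals of 10865 and 9963.2 against 24322 and 35246 and rose by 1.49 ± 0.21 (adjusted p = 0.0348). Gclc, the catalytic subunit of the first enzyme of glutathione synthesis, had signals of 12382 and 7982.1 against 4853 and 3033.3 and fell by 1.37 ± 0.20 (adjusted p = 0.0348). They were the only calls among 22 NRF2 and glutathione genes, whose median was 0.07, or -0.01 in males. In the wider fit that median was -0.29 and 0.53 with the wild-type female and male arrays left out, and -0.19 and 0.30 with the knockout male and female ones. Of the 22 differences 11 were above 0 and 11 below. Gstm3 and Nfe2l2 differed by 2.12 and 1.05 without passing (adjusted p of 0.0676 and 0.064). Asns, asparagine synthetase, was the only call among 25 chaperone and ATF4 target genes, with signals of 202.2 and 845.1 against 1075.2 and 2250.5 (1.86 ± 0.28, adjusted p = 0.0401). H2-Bl was the only call among 23 interferon and class I genes, whose median was -0.22, or -0.19 in males, and in the wider fit -0.04 and -0.13 with the wild-type female and knockout male arrays left out. The classical H2-K1 and H2-D1, named after their values were seen, differed by -0.24 and -0.59 (adjusted p of 0.46 and 0.196).

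**Figure D4:**
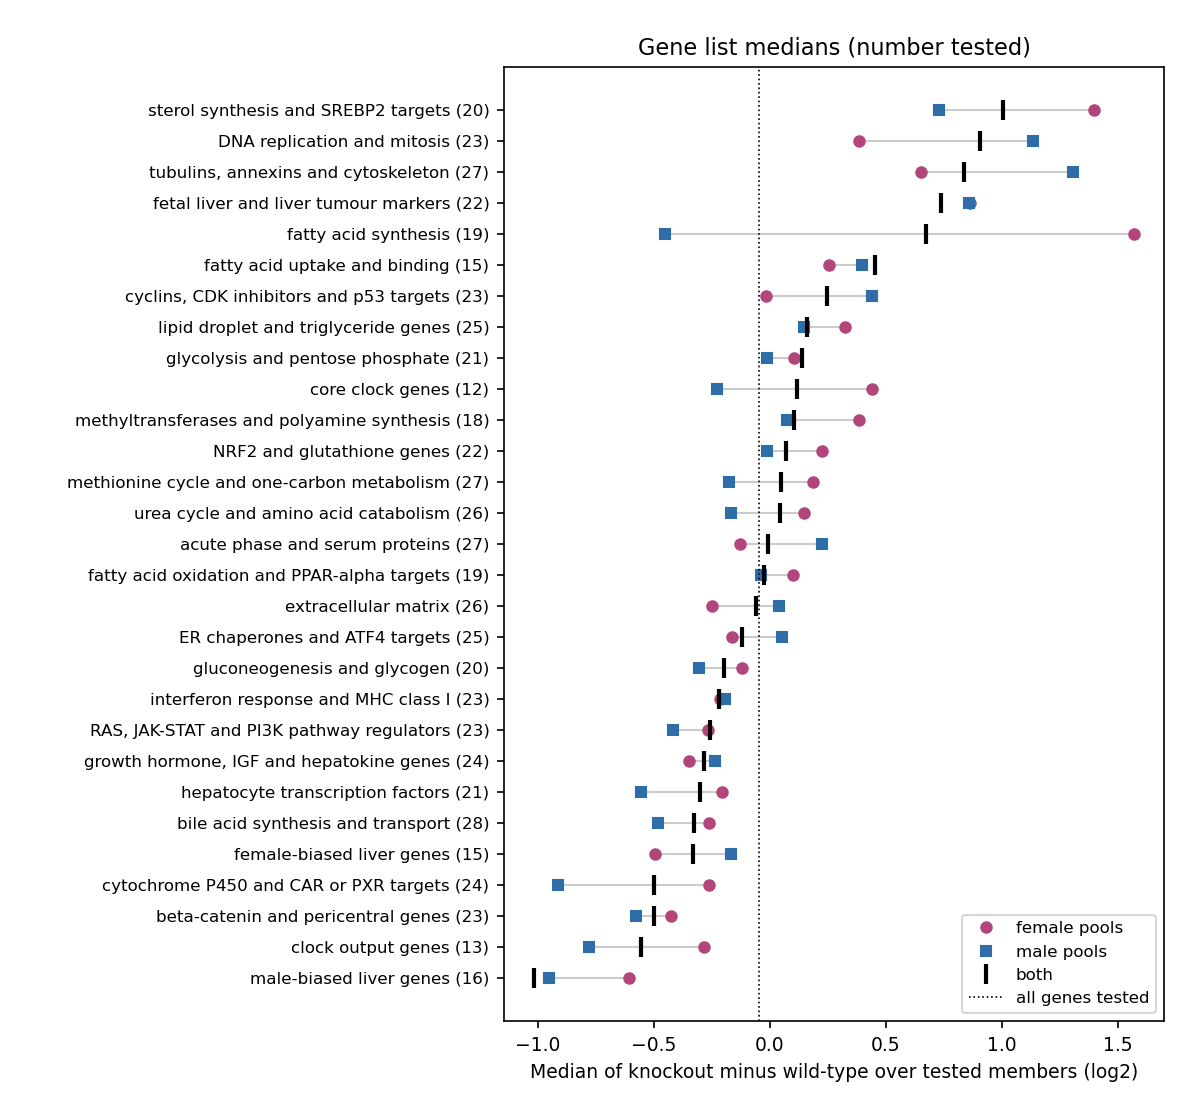
Median log2 difference of knockout minus wild-type over the tested members of each of 29 pathway lists, for both sexes together (bars), the female pools (circles) and the male pools (squares), with the median of all genes, -0.05, as a dotted line. Sterol synthesis (1.004) is at the top and male-biased genes (-1.02) at the bottom, and fatty acid synthesis has its sexes on opposite sides of 0.

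Markers of other liver cells were compared because pieces of whole liver hold several cell types. Of 14 endothelial markers 2 fell (0.743% of all genes) and 0 rose (0.707%), and all 14 differences were below 0. Both knockout pools lay below both wild-type pools in 13, as in 26.1% of all genes. The median was -1.06, with -1.16 in females and -0.84 in males. That median was -0.52 in the wider fit when the wild-type female array was left out. The summed signal of the markers was 24993 and 19349 in wild-type and 10438 and 10411 in knockout liver. Fewer cells of a type and less RNA per cell cannot be told apart in such bulk samples. Stab2, a scavenger receptor of sinusoidal endothelium, had signals of 2757.7 and 1921.6 against 800.2 and 749.7 and fell by 1.55 ± 0.23 (adjusted p = 0.0401). Oit3 had signals of 1110.6 and 757.3 against 402.8 and 304.8 and fell by 1.35 ± 0.23 (adjusted p = 0.0496). Receptors of vessel growth came next without passing, with Ptprb at -1.23, Tek at -1.17 and Kdr at -1.12 (adjusted p of 0.0513, 0.0918 and 0.0694).

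Of 15 Kupffer cell and macrophage markers 0 were called in limma, all 15 differences were below 0 and the median was -0.61, with -0.97 in females and -0.29 in males. It was -0.16 in the wider fit when the wild-type female array was left out and -0.96 when the wild-type male one was. Their summed signal was 41836 and 31485 against 24248 and 22587. Cybb, a subunit of the phagocyte oxidase, had the largest difference (-0.96, adjusted p = 0.117), followed by Timd4 (-0.93) and Slc40a1 (-0.86). The summed signals overlapped for stellate cells (32415 and 21409 against 27161 and 25185), cholangiocytes (2170 and 2184.7 against 2631.5 and 1879.9), neutrophils (1070.8 and 838.6 against 748.5 and 1418.2) and B cells (10332 and 6628.6 against 7555.1 and 6386). For T and NK cells the sums were 626.9 and 502.2 against 456.3 and 456.5, for erythroid cells 1150.1 and 6354.3 against 632.9 and 2626.2, and for adipocytes 57462 and 66725 against 45689 and 30593. The adipocyte sum was mostly Car3 (56564 and 65633 against 44435 and 24701), while 3 of the 4 tested markers were above 0 with a median of 1.03, among them Cidea at 2.30 and Fabp4 at 1.53, and none was called in limma. Only 2 to 4 markers of these 3 types and of pancreatic acinar cells (1795.2 and 3238.5 against 1391.6 and 2340.4) passed the filter on low signals. Alas2, the erythroid enzyme of haem synthesis, had signals of 812 and 6014.2 against 266.4 and 2236 and fell by 1.48 ± 0.22 (adjusted p = 0.0399).

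Of 12 core clock genes and 13 clock output genes 0 were called in limma, with medians of 0.12 and -0.55, or -0.23 and -0.78 in males. With the wild-type female array left out of the wider fit these were -0.63 and -1.26, and with the wild-type male one left out 0.78 and -0.03. In females Dbp differed by 5.74, Ciart by 4.37 and Arntl by -4.57, and in the male pools by -0.23, -0.09 and 0.05. Ciart, a clock repressor, was at 23 in the wild-type female pool against 649.4, 803.3 and 610.5, and Per3 at 75.2 against 294.7, 424.4 and 318.1. The 3 other young pools were closer to each other in both of these genes. Nfil3 (1988.9 and 829.2 against 489.4 and 441.7) and Tsc22d3 (7278.8 and 4682.1 against 2082.8 and 2441.9) were lower in both sexes without passing (adjusted p of 0.076 and 0.058).

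**Figure D5:**
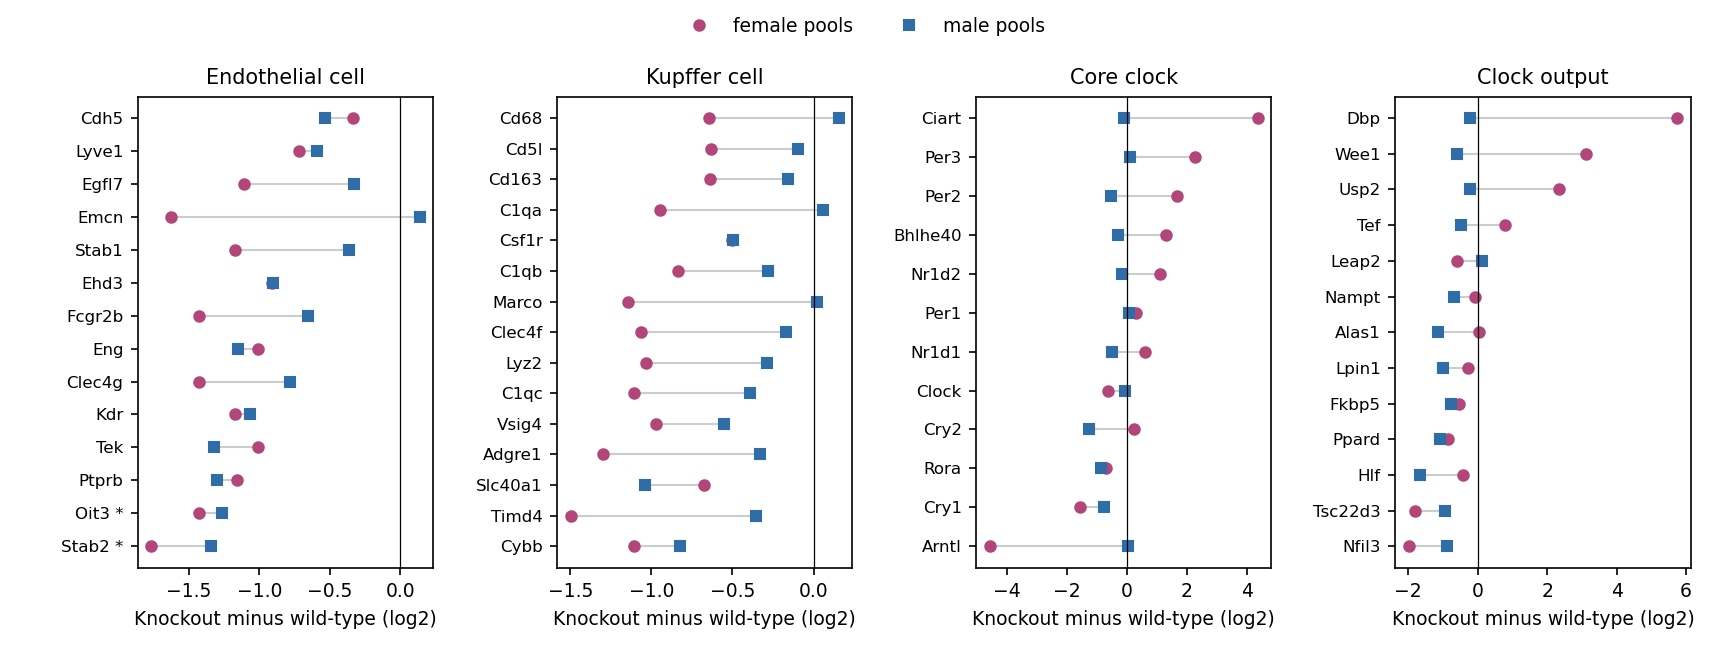
Log2 difference of knockout minus wild-type for each tested endothelial marker, Kupffer cell marker, core clock gene and clock output gene, in the female pools (circles) and the male pools (squares), with called genes marked by an asterisk. Nearly all endothelial symbols lie below 0, the Kupffer cell symbols lie nearer to 0 in males, and the clock genes Dbp (5.74) and Arntl (-4.57) differ mainly in females.

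A targeted gene in a mixed strain can carry neighbouring DNA of the other strain with it, so the genes around Gnmt on chromosome 17 were listed. Of the 10 nearest tested genes on each side, 0 of 20 were called in limma and their differences ran from -0.83 (Ubr2) to 0.79 (Mrps10), both with an unadjusted p below 0.05. Of the 100 nearest on each side 3 of 200 (1.5%) were called, H2-Bl and Rcan2 higher and Cyp39a1 lower. On the whole chromosome 8 of 531 genes besides Gnmt were called (1.51%), against 159 of 11031 (1.44%) over the genome.

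The other lists held no call in limma. These were 21 hepatocyte transcription factors (median -0.30 and -0.55 in males, 17 below 0, with Onecut2 at -0.82 and adjusted p = 0.194), 26 urea cycle and amino acid genes (median 0.05 and -0.17 in males) and 26 extracellular matrix genes (median -0.06 and 0.04 in males). In the wider fit the median of the transcription factors was -0.47 and -0.56 with the wild-type female and knockout female arrays left out, and that of the urea cycle genes lay between -0.04 and 0.13. The urea and matrix medians changed sign under other scalings, and the matrix median lay between -0.60 and 0.46 in the wider fit as single arrays were left out. Hnf4a, the central hepatocyte factor, had signals of 16530 and 15905 against 12490 and 10828 (difference -0.48, adjusted p = 0.218). Col3a1, a fibrillar collagen, was at 809.7 and 1086.3 against 1500.1 and 2267.3 without passing (difference 0.96, adjusted p = 0.0892).

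Levels in aged knockout liver are given beside the young ones without a comparison, since age and the presence of a tumour or nodule differ. In the adjacent liver of the nodule-bearing female, the tumour-bearing male and the tumour-bearing female, Cidec had signals of 472.1, 1008.2 and 1747.4, in the range between the young wild-type and the highest young knockout pool. Csad was at 986.6, 1004.1 and 2287, and Slco1a1 at 51, 62.3 and 57.6. Sdr9c7 was at 200.8, 128.5 and 208.3. In these 4 genes every aged knockout liver was on the knockout side of both young wild-type pools. Ppp1r3g, at 364.4, 8.4 and 1002.1, was not.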

How the data were processed

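Liver RNA of 4 pools was measured on single-colour Affymetrix arrays, from 5 ug of total RNA per the labels' protocols. The deposited intensity values, 1 per probe set on a linear scale, were computed by the authors with GCOS, per the submitters' processing notes, with version and settings not given in the sources used here. The trimmed mean of every array was 500 with 2% left out at each end, which shows a common scaling of the arrays before deposit. Signals of 0.1 to 122580 were present, with no detection calls used.

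Of 45101 probe sets, 64 were controls, 34945 named 1 gene in the platform annotation (34741 gene identifiers matched the mouse gene table), 932 named several and 9160 none. A constant of 16.8, which is the 20th percentile of the signals, was added before log2. For a gene with several probe sets the brightest on average stood for it. Genes were kept where the mean over all 10 arrays was above that of a signal of 91, which left 11032 of 18193 genes. Signal shared by paralogs was not resolved.

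The 4 pools were fitted with limma 3.58.1 in R 4.3.3, with sex as a term and an intensity trend in the variance prior. The sexes pair the pools, since the labels give no replicate numbers. The difference of the genotype effect between sexes was not tested, because 1 pool per genotype and sex leaves no residual degree of freedom. The procedure was tested on simulated data of this design, where signs and sizes were recovered but the share of false calls was above the set threshold.

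Names came from Gnmt, the 20 largest called genes in each direction, all called list members and the 3 largest uncalled members of each list. They also came from up to 5 genes of opposite sign in the sexes in each direction and 10 neighbours of Gnmt on each side. Not all of these uncalled members and neighbours are named in the text. Other names are marked in the text as chosen after their values were seen. Members and gene lists (29 of pathways and 11 of cell type markers, 800 genes) were chosen with earlier results of these data known, so a list's direction is no independent evidence. Promoters came from RefSeq (GRCm38.p6). Alternatives changed the constant, the scaling, the filter, the choice of probe sets, the model terms, the variance prior and the arrays.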

Additional observations from a re-analysis of the deposited data

Results flagged for a closer look

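Of 11032 genes, 41 (0.372%) differed at least 2-fold in opposite directions in the sexes, 14 higher in knockout females and lower in knockout males and 27 the reverse, while 1244 (11.3%) and 1390 (12.6%) differed at least 2-fold in females and in males. Each value rests on 1 pool against 1 pool, and the difference between the sexes was not tested. Among those lower in knockout females and higher in knockout males, the cell cycle inhibitor Cdkn1a differed by -1.04 in females and 4.07 in males, with signals of 1579.2 and 151.8 in wild-type against 759.1 and 2820.5 in knockout liver. Its lowest signal was in the wild-type male and its highest in the knockout male pool. S100a9, a neutrophil granule protein, differed by -1.60 and 1.87, and Cyp2b13, a female-biased P450, by -2.15 and 1.71, with the wild-type male signal below the added constant. Dtx2 differed by -1.73 and 1.53, Rph3a by -2.46 and 1.93, and Ccdc180 by -2.76 and 1.5. Among those higher in knockout females and lower in knockout males, the growth regulator Myc differed by 1.89 and -1.60, with signals of 226.8 and 1321.5 against 883.6 and 425. Runx1, a transcription factor of blood and bile duct cells, differed by 1.59 and -2.15, Cyp2c55 by 1.65 and -1.61, Git1 by 1.49 and -1.51, and Cphx3 by 1.43 and -1.35. None of the 11 was called in limma.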

How the results depend on the processing

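The count of 160 called genes was within 1.5 times under a halved (193) or doubled (145) constant, without the filter (143) and with robust moderation (239). It was 635 after quantile normalization (350 higher, 285 lower), 341 with 75th percentile centring, 25 over the mean of all probe sets of a gene, 2 without a sex term, 1 without the intensity trend, and 5 with all 10 arrays. By probe set, 695 of 20905 were called. Leaving out 1 young pool, in the fit over all other arrays, gave 0 to 7 calls. The cause of these moves was not tested; the fits over more arrays include aged tissue. All 160 genes kept their direction in every fit of the 4 arrays that tested them. Dropping the sex term, the trend or the filter, or robust moderation, leaves each difference as it was, so direction could not change there. Without the wild-type male pool and without the knockout female pool 159 kept their direction. The exception in both was Cyp8b1, at 0.14 and 0.41, with -3.30 to 0.41 over the fits that left out 1 pool. Medians near 0 also changed sign, as single arrays were left out, in several lists named in the report. They changed sign under quantile normalization or 75th percentile centring for fatty acid oxidation, methionine, acute phase, chaperone, urea cycle and matrix genes. The sex term is the pairing of the pools, so the count without it, 2, is that of the unpaired fit. With 2 pools per genotype and 1 scale for all arrays, the smallest difference called was 1.04 on the log2 scale.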

Other observations

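Of the 160 called genes 107 were in no list, and those described here were chosen after their values were seen. Apoc2, the cofactor of lipoprotein lipase, had signals of 13652 and 17348 in wild-type and 44216 and 54980 in knockout liver and rose by 1.68 ± 0.17 (limma adjusted p = 0.0139). Pltp, the phospholipid transfer protein, had signals of 3896.9 and 2897.9 against 22351 and 11022 and rose by 2.22 ± 0.22 (adjusted p = 0.0139). Serpina7, which encodes thyroxine-binding globulin, had signals of 461.4 and 661.7 against 2874 and 4661.2 and rose by 2.69 ± 0.22 (adjusted p = 0.0101). Atpif1, the inhibitor of ATP synthase, was at 1010.6 and 1061.2 against 5045.9 and 4200.7 (2.13 ± 0.22, adjusted p = 0.0139). Oxct1, the enzyme of ketone body use that adult hepatocytes largely lack, was at 279.6 and 161.5 against 872.3 and 799.1 (1.89 ± 0.27, adjusted p = 0.0348).

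C8b, a chain of complement component 8, had signals of 5027.6 and 10934 against 918.7 and 4337.5 and fell by 1.88 ± 0.29 (adjusted p = 0.0401). Hsd11b1, which regenerates active glucocorticoid, had signals of 37196 and 31765 against 15745 and 17631 and fell by 1.04 ± 0.18 (adjusted p = 0.0496). Fgfr4, the hepatocyte receptor of the gut hormone FGF15, had signals of 1703 and 924.3 against 676.8 and 286.8 and fell by 1.47 ± 0.23 (adjusted p = 0.0424). Retsat, retinol saturase, had signals of 21693 and 23208 against 7511.8 and 8779.3 and fell by 1.46 ± 0.18 (adjusted p = 0.0209). Xdh, xanthine dehydrogenase, had signals of 2283.1 and 4071.3 against 875.2 and 642.8 and fell by 1.999 ± 0.32 (adjusted p = 0.0424). S1pr1, a sphingosine 1-phosphate receptor known from endothelium, had signals of 1406.6 and 755 against 395.6 and 224.6 and fell by 1.73 ± 0.23 (adjusted p = 0.031), beside the lower endothelial markers described above.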
